A study of Mus musculus with 12 samples.

Results

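The comparison described here is anti-VEGF against vehicle in mouse colorectal tumours that grew in fatty liver. It was made of every array whose title names colorectal cancer (CRC) in fatty liver, 3 labelled anti-VEGF and 3 labelled vehicle, which is 6 of the 12 arrays of the series. The other 6 arrays carry the same treatments in tumours of healthy liver and entered the statistical model, where they share the estimate of the spread. The design text gives 3 mice per group and states that the cancer was injected into the livers. The sources used here do not give the cell line, the way the liver was made fatty, the mouse strain, age and sex, or the agent, its dose and duration. The labels call the replicates biological, and p-values measure the spread between these samples. Some arrays of both livers were nearly alike, and averaging them left 8 of the 12 samples. If such arrays are not from separate mice, the spread is understated. All values are the deposited log2 expression values of single-colour whole-transcript arrays, so a difference of 1 is a doubling. Of 22180 genes with a row of their own, 13286 were tested. A tested gene had to exceed 4.93, the middle value of the deposited table, on 3 or more of the 12 arrays, and a value under that limit is treated as near background.

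VEGF-A is a secreted ligand that drives the growth of blood vessels through the endothelial receptor VEGFR2, encoded by Kdr. Antibodies that block it are used against colorectal cancer that has spread to the liver. Blocking VEGF can prune tumour vessels and lower the oxygen supply, and tumours in a fatty organ have fatty acids at hand as a fuel. The comparison asks how the RNA of such tumours differed when the mice received the agent. In bulk tissue, fewer cells of a type and less RNA per cell cannot be told apart.

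The tissue carried some of the epithelial markers of its label. Krt8, a keratin of simple epithelium, lay between 9.12 and 10.04 on the 6 arrays, and Krt18, its partner, between 6.47 and 7.25. Epcam, an adhesion molecule found on most colorectal cancers, was near background on every array, at most 3.78, and so were Krt20, Vil1 and Cdx1, markers of intestinal epithelium. Of 17 epithelial genes 10 were tested. Alb, the albumin gene of hepatocytes, was also near background, at most 4.07, and 8 of 33 hepatocyte genes on the table were tested.

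Before any group difference, the 6 arrays differed strongly among themselves. Vehicle arrays 1 and 3 and anti-VEGF array 2 lay close together, while vehicle array 2, anti-VEGF array 1 and anti-VEGF array 3 stood apart from them. The first principal component held 60.2% of the variance and did not separate the treatments. Vehicle array 2 scored 31.8 and anti-VEGF array 1 scored 19.8 on it, against -48.0 for anti-VEGF array 3. The remaining arrays scored between -2.30 and -0.037. The SD of the gene-by-gene difference was 0.163 between vehicle arrays 1 and 3, with only 4 genes a doubling or more apart. It was 0.272 between either of these and anti-VEGF array 2, an array of the other treatment. Vehicle array 2 and anti-VEGF array 1, also of different treatments, were each nearest to the other, with an SD of 0.325 and 162 genes at least a doubling apart. By contrast the SD was 0.616 between anti-VEGF arrays 1 and 3, with 930 such genes. It was 0.703 between vehicle array 2 and anti-VEGF array 3, with 1446. Whether vehicle arrays 1 and 3 stem from separate mice cannot be read from the values.

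**Figure D1:**
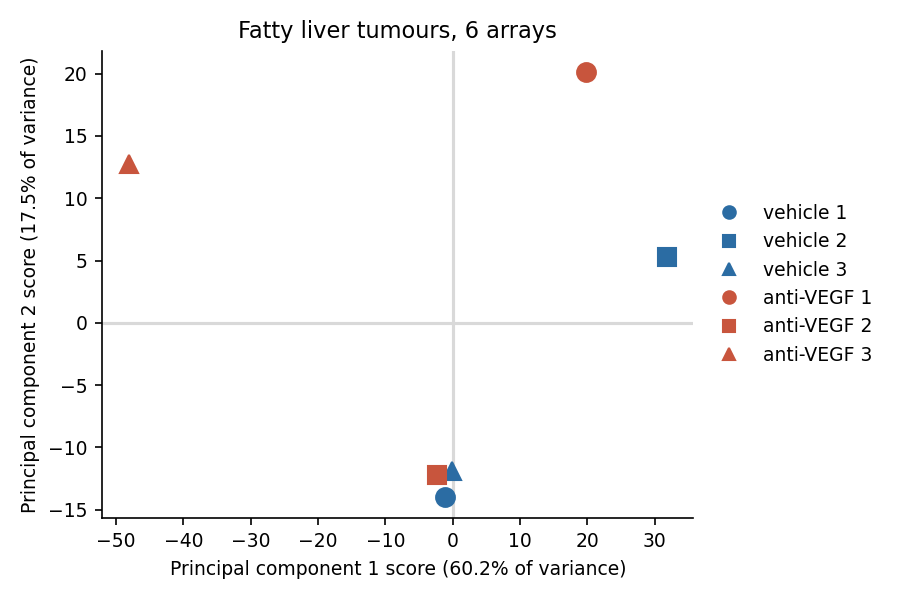
Scores of the 6 fatty liver arrays on the first (x axis) and second (y axis) principal component of the 13286 tested genes, with the share of variance on each axis; blue, vehicle, and red, anti-VEGF, with a symbol for each replicate number. Vehicle arrays 1 and 3 and anti-VEGF array 2 sit together at the bottom. Vehicle array 2 and anti-VEGF array 1 both lie to the right of them, and anti-VEGF array 3 lies far to the left, at -48.0 on the first component.

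Transcripts of the sex chromosomes separated vehicle arrays 1 and 3 from the rest. Xist, the noncoding RNA of X inactivation, read 10.58, 4.27 and 10.45 on vehicle arrays 1, 2 and 3, and 3.90, 4.32 and 3.89 on the anti-VEGF arrays. Uty, a Y-linked gene, read 4.17, 8.54 and 3.84 under vehicle, against 8.27, 8.40 and 8.03 under anti-VEGF. Kdm5d and Eif2s3y, also Y-linked, had the same pattern. Thus 2 of the 3 vehicle arrays, and no anti-VEGF array of fatty liver, were high in Xist. Healthy liver had the same layout. There Xist read 8.10, 4.03 and 8.43 on vehicle arrays 1, 2 and 3, and 4.01 to 4.25 on the anti-VEGF arrays. With only vehicle array 2 of each liver low in Xist, this pattern and the treatment cannot be fully told apart. Among all genes the part of this pattern was not tested, except by leaving the 2 fatty liver vehicle arrays high in Xist out, as given beside the results.

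A single gene passed the test. Klk1b11, a member of the kallikrein 1 cluster of serine proteases, was lower under anti-VEGF in fatty liver and fell by 1.78 on the log2 scale (SE 0.19, adjusted p = 0.0257). It read 7.87, 7.60 and 7.84 on vehicle arrays 1, 2 and 3. On anti-VEGF arrays 1, 2 and 3 it read 6.09, 6.18 and 5.71. The groups did not overlap. Vehicle array 2 was the lowest of its group, anti-VEGF array 1 lay between the other two, and anti-VEGF array 3 was the lowest of all 6. Without array 3 the difference was -1.64 and did not pass (adjusted p = 0.141). Group means were 7.77 ± 0.15 and 5.99 ± 0.25 (SD, n = 3). In healthy liver the gene read 4.83 to 5.57 on the 6 arrays, close to the limit of 4.93, and its treatment difference there was -0.14. The difference between the livers, -1.63, did not pass (adjusted p = 0.278).

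Against this stands the count over all genes. In limma 0 of 13286 genes passed as higher under anti-VEGF (0%) and 1 as lower (0.00753%), at a Benjamini-Hochberg adjusted p of 0.05. At an unadjusted p of 0.05, 321 genes were higher and 457 lower. The smallest adjusted p of a higher gene was 0.795. The 3 anti-VEGF arrays lay all above the 3 vehicle arrays for 408 genes (3.07%) and all below for 663 (4.99%). The median difference of all tested genes was 0.01. When limma weighted the arrays by their scatter, 920 genes passed as higher and 928 as lower. With only the 6 fatty liver arrays and no weights, 0 genes passed in either direction, so the large counts came with the weighting. Vehicle arrays 1 and 3 were nearly alike, and whether the weights favoured such arrays was not tested.

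The call of Klk1b11 depended on which arrays set the spread, while its direction did not turn. With only the 6 fatty liver arrays in the model it had the same difference and an adjusted p of 0.183. With nearly alike arrays averaged, arrays of healthy liver among them, its difference was -1.73 and the call was lost. Its call held in 4 of the 12 fits that each left out 1 array, over which the difference ran from -1.87 to -1.64. It was lost without any vehicle array of fatty liver (adjusted p = 0.251, 0.102 and 0.251 without arrays 1, 2 and 3) and, as above, without anti-VEGF array 3. It was also lost without healthy liver vehicle array 2 (0.0502) or healthy liver anti-VEGF array 1, 2 or 3 (0.0764, 0.0819 and 0.0577). Without vehicle array 2 and anti-VEGF arrays 1 and 3 together the difference was -1.68 (adjusted p = 0.151). Without the 2 vehicle arrays high in Xist it was -1.60 (adjusted p = 0.453).

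Klk1b11 has close relatives next to it, and 2 more of them showed a gap between the groups. Tissue kallikreins cut kininogen to release kinins, which widen vessels, and the mouse has a large cluster of near-identical copies. Klk1b27 read 6.51, 5.95 and 6.74 under vehicle, against 5.12, 4.54 and 3.27 under anti-VEGF, and did not pass (adjusted p = 0.795). Its anti-VEGF arrays 2 and 3 lay under the limit of 4.93, so no size is given. Klk1, the founding tissue kallikrein, read 7.84, 7.47 and 7.71 under vehicle, against 5.64, 6.66 and 3.50 under anti-VEGF, a difference of -2.41 (SE 0.59, adjusted p = 0.795). Here anti-VEGF array 3 lay under the limit, and in both genes it was the lowest of the 6. Klk1b24 went the other way without passing, with 5.28, 4.43 and 5.39 under vehicle, against 5.51, 5.71 and 5.22 under anti-VEGF. Of 15 genes of the cluster, a list drawn up after these values were seen, 12 were on the table and 4 were tested. Of these 4, 3 lay all below, against 4.99% of all genes, which says nothing of the cluster since the list followed the values. Probes of such similar genes may read more than 1 copy, and which copy each row measured was not tested.

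The bases upstream of the start are shown for Klk1b11 and Klk1b27 because Klk1b11 passed the test and Klk1b27 is a relative of it whose groups did not overlap. They are from RefSeq on GRCm38.p6, plus strand, Klk1b11 at chr7:43995627-43995876 and Klk1b27 at chr7:44052040-44052289, each 250 bases long and ending at the base before the annotated start. Capitals mark the hexamer TTTAAA, which is its own reverse complement.
Klk1b11: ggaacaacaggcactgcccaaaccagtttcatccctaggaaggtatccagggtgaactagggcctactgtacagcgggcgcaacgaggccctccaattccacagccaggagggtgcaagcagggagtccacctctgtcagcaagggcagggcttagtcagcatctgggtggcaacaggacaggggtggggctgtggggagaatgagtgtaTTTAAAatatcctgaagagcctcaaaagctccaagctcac
Klk1b27: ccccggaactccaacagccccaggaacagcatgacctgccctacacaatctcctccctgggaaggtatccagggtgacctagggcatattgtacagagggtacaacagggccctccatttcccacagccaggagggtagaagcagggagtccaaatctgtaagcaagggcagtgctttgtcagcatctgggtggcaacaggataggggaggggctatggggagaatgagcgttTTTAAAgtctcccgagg
The hexamer begins 40 bases before the start of Klk1b11 and 17 bases before that of Klk1b27. It was present in 12.1% of the windows of 27025 genes, taking the first window listed for each, and in 12 of the 14 cluster genes that have a window. In a global alignment the 2 windows were identical at 72.5% of 273 columns. The Klk1b11 window was as much alike to that of Klk1b24, at 74.3% of 261 columns, although Klk1b24 overlapped between the groups. With the window of Klk1 it was identical at 49.6% of 268 columns, little more than the 44.4% of 259 columns with that of the unrelated Cry1.

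Several genes of the circadian clock were among those without overlap between the groups, none past the test, and the list of clock genes was drawn up after their values were seen. Cry1, a repressor of the clock's activator complex, read 7.29, 7.51 and 7.34 under vehicle, against 6.84, 6.50 and 6.71 under anti-VEGF, a difference of -0.70 (SE 0.11) with the second smallest p among lower genes (adjusted p = 0.501). Nr1d1, the nuclear receptor REV-ERB alpha, read 8.19, 7.70 and 8.09 under vehicle, against 8.42, 9.16 and 9.01 under anti-VEGF, a difference of 0.87 (SE 0.18, adjusted p = 0.795). Nr1d1 is itself a clock repressor that acts on the activator gene Arntl. Its relative Nr1d2 was higher by 0.59 (SE 0.16), Arntl by 0.39 (SE 0.12), and the period gene Per1 differed by -0.65 (SE 0.26), all without overlap between groups and none past the test. Of 15 tested clock genes 3 lay all above, against 3.07% of all genes, and 2 all below, against 4.99%, which supports nothing about the clock since the list followed the values. The other 10 overlapped, and the median difference was -0.08. The sources used here do not give the hour of collection. Nr1d1 was past the threshold without anti-VEGF array 1 (1.09, adjusted p = 0.0473). It also was without all 3 of the arrays that stood apart (1.02, adjusted p = 0.0457), but that fit has a single anti-VEGF array of fatty liver and takes the spread from the other groups.

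The upstream window of Cry1 is given because the E-box, the sequence bound by the clock's activators, lies in it. It is from RefSeq on GRCm38.p6, minus strand, chr10:85185055-85185304, written in the direction of the gene. Capitals mark CACGTG, also its own reverse complement.
Cry1: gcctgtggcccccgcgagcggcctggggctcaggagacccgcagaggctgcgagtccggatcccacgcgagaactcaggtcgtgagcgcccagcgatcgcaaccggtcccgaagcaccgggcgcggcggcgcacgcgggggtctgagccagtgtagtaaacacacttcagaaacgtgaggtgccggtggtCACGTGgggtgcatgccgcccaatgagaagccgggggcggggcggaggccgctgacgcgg
The motif begins 60 bases before the start. It was in 6.05% of the windows of all 27025 genes and in 4 of the 17 clock genes that have a window, namely Per1, Cry1, Tef and Ciart. A match of letters is a description of the sequence and says nothing of binding in these tumours.

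**Figure D2:**
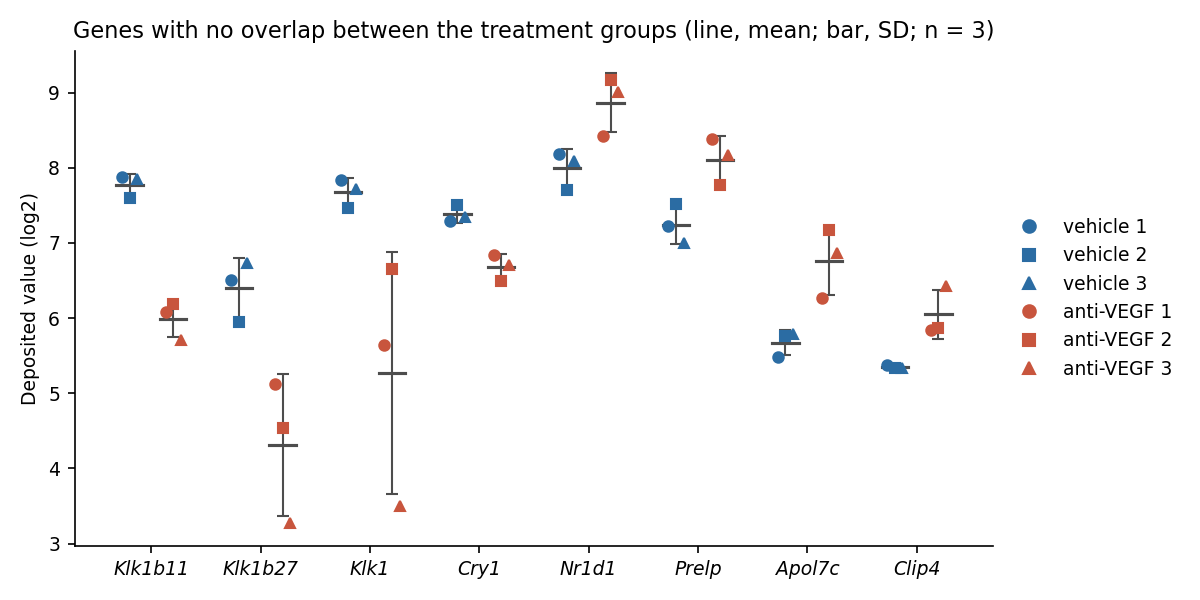
Deposited log2 value (y axis) of 8 genes (x axis) on each fatty liver array; blue, vehicle, and red, anti-VEGF, with a symbol per replicate number, a line at the mean and a bar of 1 SD (n = 3). In each gene the 3 blue and 3 red points do not overlap; only Klk1b11 passed the test, and the low anti-VEGF points of Klk1b27 and Klk1, 3.27 and 3.50, are both array 3.

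Other genes at the top of the ranking were higher under anti-VEGF without passing. Prelp, a small proteoglycan of connective tissue matrix, read 7.22, 7.51 and 6.99 under vehicle, against 8.39, 7.77 and 8.17 under anti-VEGF, a difference of 0.87 (SE 0.16). Cd248, a surface protein of pericytes and fibroblasts also called endosialin, read 7.35, 6.95 and 7.14 and then 7.68, 7.60 and 7.69, a difference of 0.51 (SE 0.10). Apol7c, of the apolipoprotein L family, read 5.48, 5.76 and 5.78 under vehicle, against 6.26, 7.17 and 6.86 under anti-VEGF, a difference of 1.09 (SE 0.22). Clip4, a CAP-Gly domain protein, was tight under vehicle, between 5.34 and 5.38, and read 5.84, 5.87 and 6.43 under anti-VEGF. The remaining genes among the 10 with the smallest p were Mid1 (1.56, SE 0.37), Pou2f2 (0.55, SE 0.13), Marchf1 (0.49, SE 0.12), Hmgb2 (0.33, SE 0.08) and Nes (0.58, SE 0.15). Mid1 and Marchf1 encode ubiquitin ligases, Pou2f2 the transcription factor OCT2, Hmgb2 a chromatin protein and Nes the intermediate filament nestin. All these differences had an adjusted p of 0.795.

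By width of the gap, the higher genes also took in Wfdc1, H4c9, Tnxb, Slc16a5 and Gdf11. H4c9, a histone gene, read 5.84, 5.88 and 5.86 under anti-VEGF and 5.57, 5.20 and 5.58 under vehicle. Tnxb, the matrix protein tenascin X, read 6.31, 6.20 and 6.23 against 5.94, 5.50 and 5.94. Wfdc1 read 6.79, 7.24 and 8.62 under anti-VEGF and 6.36 to 6.51 under vehicle, so that array 3 made most of its difference of 1.11 (SE 0.39). The same held for Gdf11, a TGF-beta family ligand, at 6.18, 6.30 and 7.17 against 5.82 to 5.94.

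Among the genes lower by rank were several with small and even gaps. Alpk2, an alpha-kinase, read 5.34, 5.54 and 5.22 under vehicle, against 4.87, 4.87 and 4.83 under anti-VEGF, the latter at the limit. Foxred2, an enzyme of protein disposal in the endoplasmic reticulum, read 6.63, 6.60 and 6.52 and then 5.86, 6.33 and 5.83, a difference of -0.58 (SE 0.12). Ech1, an isomerase that prepares unsaturated fatty acids for oxidation, read 10.05, 9.95 and 10.04 and then 9.53, 9.79 and 9.59, a difference of -0.38 (SE 0.08, adjusted p = 0.795). Syngr1 (-0.68, SE 0.14), Syn3 (-0.82, SE 0.19), Il9r (-0.31, SE 0.07) and Klhl31 (-0.44, SE 0.10) completed the list by p. All anti-VEGF arrays of Syn3 and Klhl31, and arrays 1 and 3 of Syngr1, lay under the limit, so these sizes are uncertain. Syn3 read 4.54, 4.59 and 3.78 under anti-VEGF, lowest on array 3. None of these genes passed.

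Beside the kallikreins and Cry1, the widest lower gaps took in several immune genes, most of them lowest on anti-VEGF array 3. Siglecg, an inhibitory lectin of B cells, read 5.76, 6.19 and 5.63 under vehicle, against 5.08, 5.10 and 4.25 under anti-VEGF. The list of B and plasma cell genes had no such direction, with 5 of 8 differences positive and a median of 0.10. H2-Eb2, a class II antigen presentation gene, read 7.76, 8.39 and 7.61 and then 6.87, 7.20 and 4.25, a difference of -1.82 (SE 0.61). Ccr8, a chemokine receptor of regulatory T cells, read 7.73, 7.43 and 7.30 and then 6.42, 6.93 and 4.50. In each of these 3 genes the groups did not overlap, yet array 3 lay far below the other anti-VEGF arrays in H2-Eb2 and Ccr8. Atp1b1, a subunit of the sodium pump, was similar, with 7.36, 6.98 and 4.52 against 7.78 to 8.05. Qpct, which cyclises the ends of chemokines and other peptides, read 6.43, 7.44 and 6.07 against 7.92 to 8.07, a difference of -1.38 (SE 0.40).

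Of the VEGF ligands and receptors, 10 of 11 listed genes were tested and none passed, and in none did the groups separate. Vegfa, the gene of VEGF-A, read 10.06, 10.19 and 9.93 under vehicle, against 9.70, 10.10 and 9.93 under anti-VEGF. The difference was -0.15 (SE 0.12, adjusted p = 0.805). The sources used here do not name the agent, and the RNA was not taken as a check of the treatment. Kdr read 9.01, 9.57 and 8.97 and then 9.10, 8.14 and 7.69, a difference of -0.87 (SE 0.75, adjusted p = 0.819). Its anti-VEGF array 1 lay within the vehicle range and arrays 2 and 3 below it. Flt1, encoding VEGFR1, read 7.58 on vehicle array 2, 6.67 on anti-VEGF array 1 and 5.46 to 6.01 on the other 4 arrays, with a difference of -0.49 (SE 0.80). Its highest and second highest values thus came from different treatments. Pgf, placental growth factor, was highest on vehicle array 2 (8.24) and lowest on anti-VEGF array 3 (6.82). The median over the list was -0.14, and the angiopoietin, FGF and other angiogenic factors had a median of -0.05 over 15 genes.

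Endothelial genes varied widely, and along the same line. Of 28 tested genes 0 passed, 7 differences were positive and 21 negative, and the median was -0.28. The list mean was 7.41 on vehicle array 2 and 7.04 on anti-VEGF array 1, but 6.10 and 6.04 on vehicle arrays 1 and 3 and 6.02 and 5.89 on anti-VEGF arrays 2 and 3. Cdh5, the cadherin of endothelial junctions, read 7.79, 9.66 and 7.50 under vehicle, against 9.36, 7.41 and 7.26 under anti-VEGF. Emcn, a sialomucin of the capillary surface, read 4.56, 8.05 and 4.27 and then 7.56, 4.08 and 3.80. On this list each group thus held 1 array with high values and 2 with low ones. In 26 of 28 genes vehicle array 2 was the highest of its group, and in 23 anti-VEGF array 1 was the highest of its own. The median turned to 0.20 without vehicle array 2 and was -0.64 without anti-VEGF array 1. The 1 gene without overlap was Pecam1, an adhesion molecule that leukocytes carry as well, at 8.29, 8.90 and 8.28 against 8.94, 8.96 and 9.26. Thus 1 of 28 genes lay all above, against 3.07% of all genes. In healthy liver the median of the same list was -0.87, and it rested on 1 array. The list mean was 8.52 on healthy liver vehicle array 2 and 5.73 on each of the other healthy liver vehicle arrays. Without array 2, an alternative chosen after seeing the data, the median there was 0.03. A separate list of 8 tested genes of sinusoidal and lymphatic endothelium had another order of arrays in fatty liver. Its means were 8.35, 8.89 and 8.36 under vehicle, against 8.20, 8.80 and 8.38 under anti-VEGF, with anti-VEGF array 1 the lowest. The median of that list was -0.12 and 0 genes passed.

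The pericyte and fibroblast lists were also highest on vehicle array 2 and anti-VEGF array 1. Rgs5, a pericyte marker, read 4.39, 9.13 and 4.37 under vehicle. It read 7.54 on anti-VEGF array 1 and at most 4.30 on anti-VEGF arrays 2 and 3. Of 12 pericyte and smooth muscle genes and 28 fibroblast and matrix genes 0 passed and 0 separated the groups, with medians of -0.20 and 0.16. The fibroblast list mean was 8.83 on vehicle array 2 and 8.89 on anti-VEGF array 1, against 7.69 to 8.07 on the other arrays. Bgn, the matrix proteoglycan biglycan, read 7.74, 10.84 and 7.50 under vehicle, against 10.83, 9.25 and 9.44 under anti-VEGF, a difference of 1.15 (SE 1.18). Postn, encoding periostin, read 6.40, 9.96 and 6.47 and then 9.79, 7.59 and 8.07. In these genes the anti-VEGF arrays 2 and 3 lay above vehicle arrays 1 and 3 but below vehicle array 2. Without vehicle array 2 the fibroblast median was 0.22, without anti-VEGF array 1 it was 0.03, and without all 3 arrays 0.02.

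**Figure D3:**
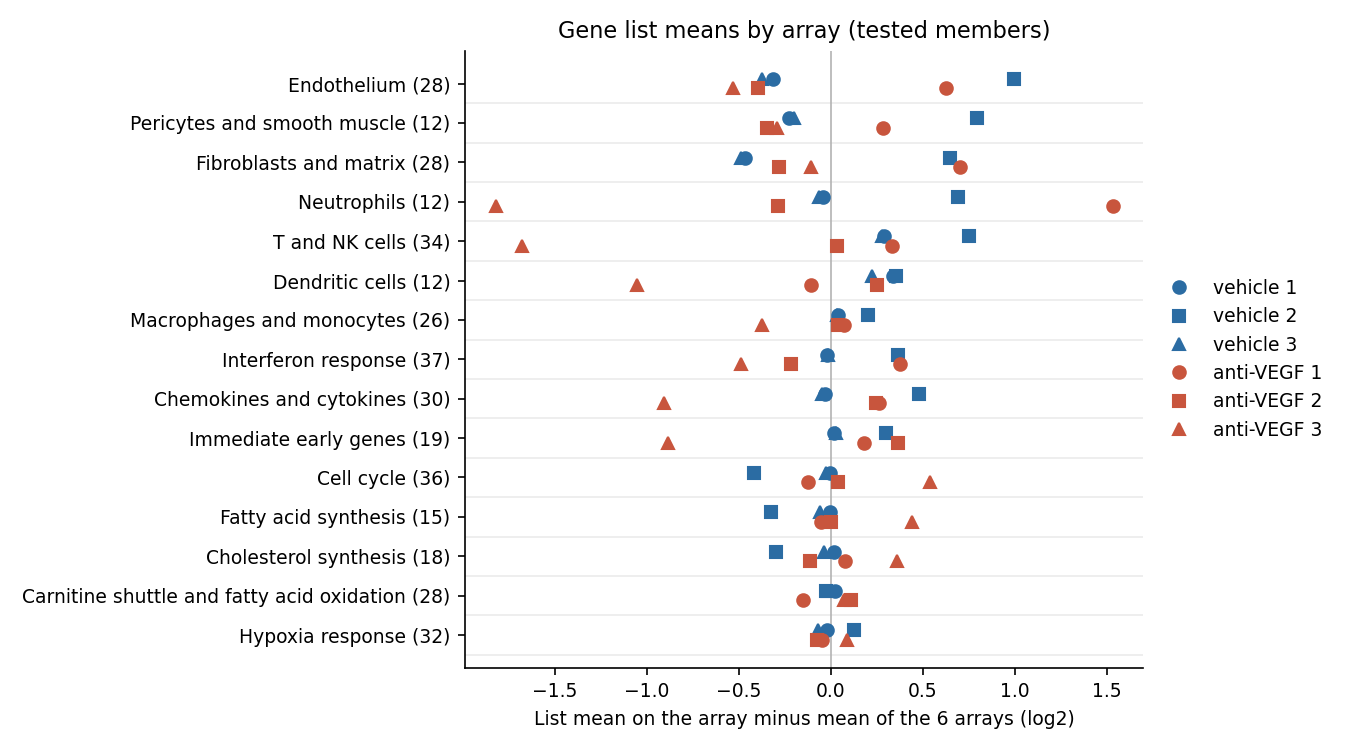
Mean of each gene list's tested members on each of the 6 fatty liver arrays, minus the mean over the 6 arrays (x axis, log2), for 15 lists (y axis, tested members in brackets); blue, vehicle, and red, anti-VEGF, with a symbol per replicate number. Vehicle array 2 and anti-VEGF array 1 lie to the right in the endothelial, pericyte and fibroblast lists, and anti-VEGF array 3 lies far to the left in the neutrophil, T and NK cell, dendritic cell, chemokine and immediate early lists and to the right in the cell cycle list.

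T and NK cell transcripts gave the median farthest from 0 of the cell type lists, and it rested in large part on anti-VEGF array 3. Of 34 T and NK cell genes 0 passed, all 34 differences were negative and the median was -0.75, where the median of all genes was 0.01. The list mean was 7.65, 8.11 and 7.63 under vehicle, against 7.69, 7.39 and 5.68 under anti-VEGF, and in all 34 genes array 3 was the lowest of the 6. Without it the median was -0.28. Ncr1, the NK cell receptor NKp46, read 8.86, 9.27 and 8.77 under vehicle, against 8.71, 7.65 and 3.90 under anti-VEGF. Gzmb, a protease of killer cells, read 10.38, 10.77 and 10.46 and then 10.77, 9.99 and 6.83. The 9 genes whose groups did not overlap were Cd4, Cd2, Icos, Foxp3, Pdcd1, Ncr1, Klrd1, Klrg1 and Tbx21, against 4.99% of all genes. In Cd4, a coreceptor of helper T cells that monocytes also carry, the gap was less tied to 1 array, with 8.28, 7.87 and 8.16 under vehicle, against 7.35, 7.74 and 7.10 under anti-VEGF (-0.71, SE 0.24, adjusted p = 0.795). Foxp3, the transcription factor of regulatory T cells, read 8.39, 8.31 and 8.18 and then 7.91, 7.73 and 6.40. Cd8a, of killer T cells, read 7.25, 8.17 and 7.26 and then 7.38, 7.49 and 5.84 (-0.66, SE 0.40), so that only array 3 lay outside the vehicle range. B and plasma cell genes differed from this, with a median of 0.10 over 8 tested genes. Of these 1, Pou2f2, lay all above, against 3.07% of all genes, and 0 all below, against 4.99%.

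Neutrophil transcripts lay farthest apart between the 2 anti-VEGF arrays 1 and 3. The mean of 12 tested genes was 7.95, 8.68 and 7.92 under vehicle, against 9.52, 7.70 and 6.17 under anti-VEGF, so that the treated arrays held both the highest and the lowest values of the 6. S100a8, a calcium-binding protein that neutrophils store, read 6.47, 8.18 and 6.45 under vehicle, against 9.75, 6.06 and 3.15 under anti-VEGF. In all 12 genes anti-VEGF array 1 was the highest of its group and array 3 the lowest. The median of -0.44 became -1.47 without anti-VEGF array 1 and 0.28 without array 3. None of the 12 genes passed or separated the groups.

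Dendritic cell genes, 12 in all, had a median of -0.38, or -0.25 without anti-VEGF array 3. Siglech, of plasmacytoid dendritic cells, read 7.02, 6.50 and 6.68 under vehicle, against 6.13, 6.19 and 4.65 under anti-VEGF (-1.08). Macrophage and monocyte genes were close to level, with list means of 10.60 to 10.77 under vehicle, against 10.64, 10.60 and 10.19 under anti-VEGF. Adgre1, a macrophage surface receptor, read 11.49, 11.41 and 11.45 and then 11.31, 11.64 and 11.61 (0.07, SE 0.27). Of 26 genes 0 passed and the median was -0.08. Ly6c2 of monocytes was the exception in spread, with 12.18, 11.34 and 9.03 under anti-VEGF and 11.70 to 12.05 under vehicle.

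Targets of type I interferon lay highest on anti-VEGF array 1 and lowest on anti-VEGF arrays 2 and 3, which targets of interferon gamma did not share. Type I targets had list means of 9.71, 9.92 and 9.70 under vehicle, against 10.03, 9.30 and 8.90 under anti-VEGF, and gamma targets 8.73, 9.43 and 8.74 and then 9.26, 8.92 and 8.87. Vehicle array 2 was thus the highest in the gamma targets, and all anti-VEGF arrays lay above vehicle arrays 1 and 3. Of all 37 interferon genes 0 passed, with a median of -0.28, and the gamma targets alone had a median of 0.04. Without anti-VEGF array 1 the median was -0.51 and Ifit1, Isg15 and Cmpk2 were called lower, each with an adjusted p of 0.0473. Ifit1, an antiviral protein that binds foreign RNA, read 10.57, 10.60 and 10.56 under vehicle, against 10.93, 9.75 and 9.25 under anti-VEGF, so that the treated arrays lay on both sides of a tight vehicle group. Ifit2 was the 1 gene of the list without overlap, at 7.80, 8.12 and 7.80 against 7.63, 7.31 and 7.08 (-0.57). Thus 1 of 37 genes lay all below, against 4.99% of all genes. Ddit3, encoding the stress factor CHOP, read 8.44, 8.53 and 8.41 and then 8.38, 7.89 and 7.63, and was also called without array 1 (-0.70, adjusted p = 0.0473). With Ddit3, 4 of 18 genes of the ATF4 and unfolded protein response lay all below, the others being Atf4, Chac1 and Sesn2, and 1 lay all above, Hspa5. Over all genes those shares were 4.99% and 3.07%. The median of that list was -0.06.

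Immediate early genes, which respond within minutes to stimuli and to handling of tissue, had a list mean of 10.37 to 10.65 under vehicle, against 10.53, 10.72 and 9.47 under anti-VEGF. In 18 of 19 genes anti-VEGF array 3 was the lowest of the 6. Nr4a3, an orphan nuclear receptor, read 9.38, 9.83 and 9.36 and then 9.01, 9.47 and 5.91. Chemokine and cytokine genes had the same lowest array, with a list mean of 8.24 on array 3 and 9.10 or more on the other 5 arrays. Their medians, -0.18 and -0.24, turned to 0.15 and 0.11 without array 3.

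Dividing-cell transcripts were the mirror image. Of 36 cell cycle genes 34 had a positive difference and 0 passed, with a median of 0.31. At an unadjusted p of 0.05, 6 of the 36 were higher, against 2.42% of all genes. The list mean was 9.11, 8.69 and 9.09 under vehicle, against 8.99, 9.15 and 9.65 under anti-VEGF. Vehicle array 2 was the lowest of its group in 35 genes and anti-VEGF array 3 the highest of all 6 in 35. Mki67, the gene of the proliferation antigen Ki-67, read 9.70, 9.41 and 9.81 and then 9.69, 9.95 and 10.46 (0.39, SE 0.17, adjusted p = 0.795). Rrm2, which supplies nucleotides for DNA synthesis, read 8.90, 8.59 and 8.82 and then 8.92, 9.16 and 9.52, and was 1 of 2 genes that lay all above, with Ccne1, against 3.07% of all genes. Without vehicle array 2 the median was 0.17, without anti-VEGF array 3 it was 0.12, and without all 3 arrays 0.07.

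Lipid synthesis shared that order of arrays. Fatty acid synthesis genes had 14 of 15 differences positive with a median of 0.25, and cholesterol synthesis genes 17 of 18 with a median of 0.23, none past the test. Fasn, the fatty acid synthase, read 10.23, 9.64 and 10.16 under vehicle, against 10.26, 10.34 and 10.94 under anti-VEGF (0.50, SE 0.19, adjusted p = 0.795). Anti-VEGF array 3 was the highest of the 6 in 14 of 15 and 15 of 18 genes, and vehicle array 2 the lowest of its group in 12 and 15. Without all 3 of the arrays that stood apart the medians were -0.02 and -0.07. Mvk and Mvd, early enzymes of the cholesterol pathway, lay all above without passing, by 0.37 and 0.34, as did the regulator Srebf2, 3 of 18 against 3.07% of all genes.

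Genes of fatty acid oxidation, a fuel route of interest in a fatty organ, had as many positive as negative differences, those of uptake and lipid droplets had mostly negative ones, and none passed. Of 28 genes of the carnitine shuttle and oxidation 0 passed, 14 differences were positive and 14 negative, and the median was 0.01, equal to that of all genes. Cpt1a, which admits fatty acids to mitochondria, read 9.93, 10.04 and 9.92 under vehicle, against 9.67, 10.35 and 10.03 under anti-VEGF (0.06, SE 0.16, adjusted p = 0.954). Ppard, a nuclear receptor that senses fatty acids, read 9.59, 9.25 and 9.58 and then 9.79, 9.80 and 9.76 (0.31, SE 0.10). Acadl, the long-chain acyl-CoA dehydrogenase, read 8.72, 8.86 and 8.80 and then 8.70, 8.41 and 8.28 (-0.33, SE 0.12). Both lay outside the vehicle range on all treated arrays, without passing (adjusted p = 0.795). Cd36, a fatty acid transporter shared by macrophages, fat cells and endothelium, read 10.07, 10.72 and 10.08 and then 8.04, 10.41 and 9.49 (-0.98, SE 0.66), with array 1 far below the rest. Slc27a3, of the fatty acid transport family, was evenly lower, at 5.60, 5.80 and 5.62 against 5.17, 5.25 and 5.28 (-0.44). Fabp4, a fatty acid carrier of fat cells and macrophages, read 10.40, 10.46 and 10.37 and then 9.87, 10.24 and 8.87. Plin2, which coats lipid droplets, differed by -0.20 (SE 0.11). Over 24 uptake and droplet genes 17 differences were negative and the median was -0.19. Of these genes 5 lay all below, against 4.99% of all genes, and 2 all above, against 3.07%. Without all 3 of the arrays that stood apart the median was -0.03.

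Hypoxia genes did not separate the groups as a list. Of 32 genes 0 passed, 14 differences were positive and 18 negative, and the median was -0.02. Slc2a1, the glucose transporter GLUT1, read 12.38, 12.19 and 12.42 under vehicle, against 12.25, 12.34 and 12.61 under anti-VEGF (0.07, SE 0.10). Car9, carbonic anhydrase IX, a common marker of tumour hypoxia, read 6.81, 6.15 and 6.53 and then 5.68, 6.42 and 6.68 (-0.24, SE 0.23). Adm, encoding adrenomedullin, was low on vehicle array 2 (7.79) and anti-VEGF array 1 (7.39), and 8.67 to 9.15 on the other 4. Those 2 arrays were the highest in the endothelial list. Glycolysis genes had a median of 0.06 over 17 and the respiratory chain -0.02 over 27.

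What each of the 3 arrays carried can be read from the genes farthest from the other 2 arrays of its group, given as a description. Vehicle array 2 lay at least a doubling above in 219 genes and below in 33. Beside the Y-linked genes, the farthest above were Rgs5, Igfbp7 (10.93 against 7.09 and 7.14), Serping1, Emcn and Sparcl1, genes of vessels and stroma. Anti-VEGF array 1 was above in 375 and below in 89. The farthest above were Saa3, an acute phase protein (12.33 against 6.24 and 6.61), Retnlg, Stfa2l1, S100a8, Il1f9, Lcn2, Emcn and Steap4. Below lay Npl, H2-M2, Fcrls, Igf1, Vcam1, Cadm1, Cd36 and Slc40a1, the last encoding the iron exporter ferroportin (8.48 against 10.96 and 9.68). Anti-VEGF array 3 was above in 114 and below in 471. The farthest below were S100a8, Gzmd, Ncr1, Cxcl3, Trem1, Gzmc, Ly6a2 and Il1f9, genes of neutrophils and cytotoxic lymphocytes among them, and Gzmc, a granzyme, read 5.01 against 9.76 and 8.51.

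The weight of these arrays in the group difference was measured by leaving each out. As a contrast of 1 array against the other 2, vehicle array 2 held 88.3% of the variation within the vehicle group. Such contrasts overlap, so their shares do not add up to the whole. In the anti-VEGF group array 3 held 68.7%, array 1 54.6% and array 2 26.7%. The sum of squares within groups was 0.261 per gene under anti-VEGF and 0.115 under vehicle.

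With all 6 arrays, 108 genes had group means a doubling or more apart, 12 higher and 96 lower under anti-VEGF. In 84 of the 108 the array farthest from its group was anti-VEGF array 3, in 12 it was anti-VEGF array 2, and in 6 each it was vehicle array 2 and anti-VEGF array 1. Without anti-VEGF array 3, 24 genes were that much higher and 8 lower. Only 17 of the 108 were then still a doubling apart in the same direction, and 8 had turned in sign. Without anti-VEGF array 1 the counts were 21 higher and 221 lower, and 102 of the 108 remained. Without vehicle array 2 they were 37 higher and 58 lower, and 65 remained. Over all genes the sign turned in 25.0% without anti-VEGF array 3, 18.1% without vehicle array 2 and 13.6% without anti-VEGF array 1. Without all 3, which leaves 2 vehicle arrays and 1 anti-VEGF array, it turned in 36.4%, and 19 of the 108 remained. The other arrays acted in part like anti-VEGF array 1. Without anti-VEGF array 2 the counts were 22 higher and 165 lower, 103 of the 108 remained, and the sign turned in 11.8% of all genes. Without vehicle array 1 or vehicle array 3, 124 and 135 genes were lower. Anti-VEGF array 3 therefore set the size of most large differences. Of the single arrays left out, anti-VEGF array 1 raised the lower count the most.

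**Figure D4:**
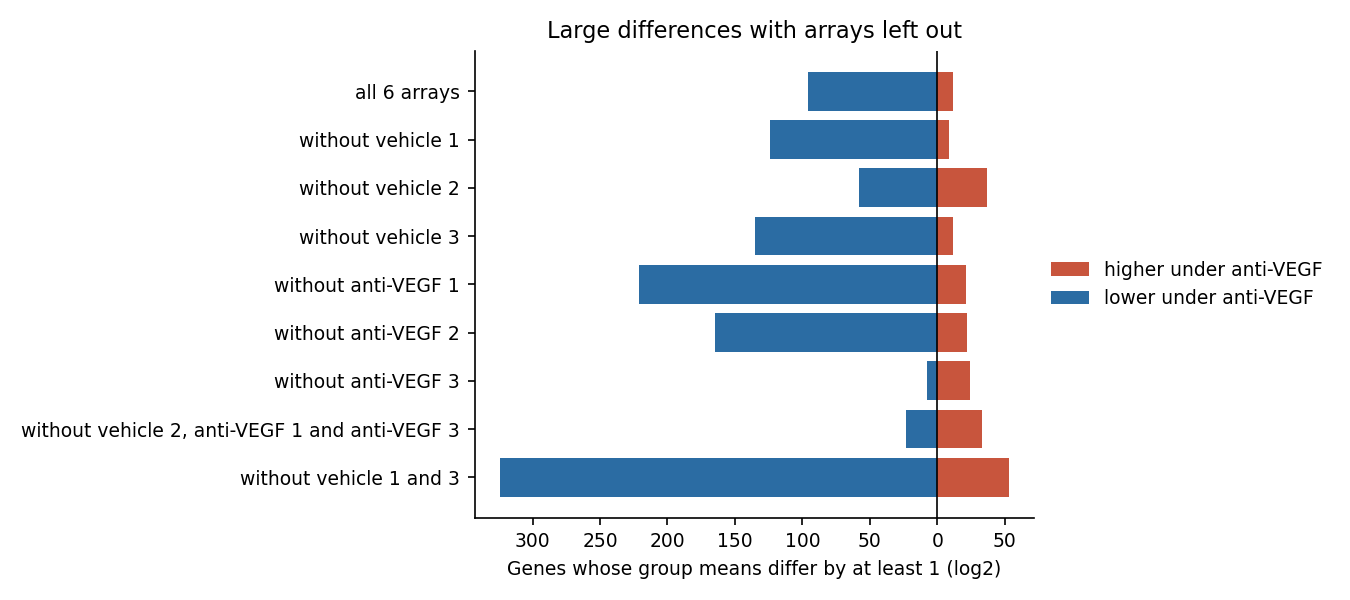
Number of genes whose group means differ by at least 1 on the log2 scale (x axis, counts to the right of 0 higher and to the left lower under anti-VEGF) with all 6 arrays and with the named arrays left out (y axis). The lower count drops from 96 to 8 without anti-VEGF array 3 and climbs to 221 without anti-VEGF array 1.

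Calls in the test changed with the same arrays. Without anti-VEGF array 1, 3 genes were called higher and 8 lower. The higher ones were Nr1d1, Apol7c (1.34) and Lpcat1, an enzyme of phospholipid remodelling (0.54), and the lower ones included Stfa2l1, a stefin family gene (-3.12), beside Klk1b11, Ifit1, Isg15, Cmpk2 and Ddit3. Without anti-VEGF array 2, 4 genes were called lower, Klk1b11, Tnfsf4, the ligand of OX40 (-1.70), Sel1l3 (-1.82) and Foxred2 (-0.74). Tnfsf4 read 6.54, 6.86 and 6.73 under vehicle, against 5.18, 6.39 and 4.85 under anti-VEGF, so array 2 was the treated array nearest to vehicle. Without vehicle array 2 or anti-VEGF array 3, 0 genes were called in either direction. Without all 3 arrays, 4 genes were called higher and 1 lower, and these compare a single anti-VEGF array with 2 nearly alike vehicle arrays, on a spread taken from the other groups. The higher ones were Nr1d1, Nr4a2, Ighg3 and an antibody light chain segment, and the lower one was Stfa2l1, at 4.36 on anti-VEGF array 2, under the limit. Ighg3 is an antibody heavy chain gene that read 8.02 on anti-VEGF array 2 and 5.15 to 5.70 on the other 5 arrays.

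**Figure D5:**
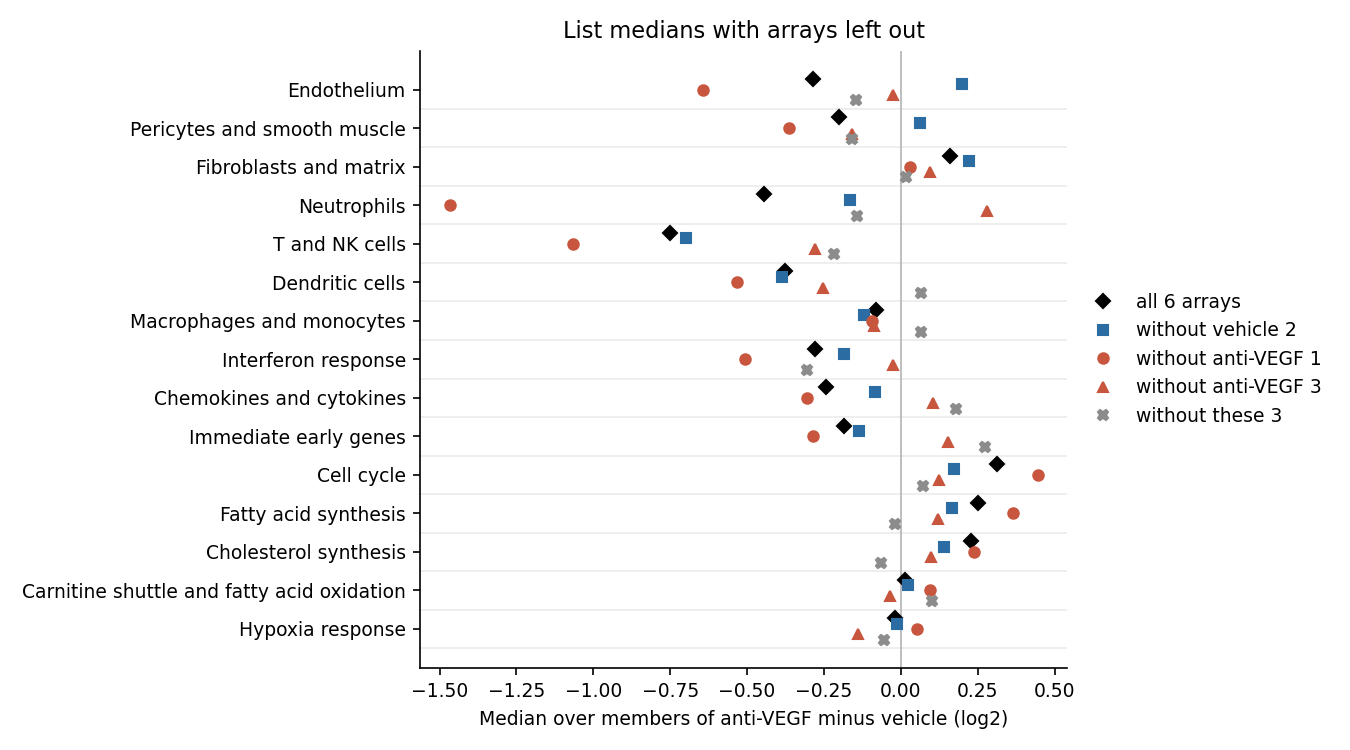
Median over the tested members of each list of the difference anti-VEGF minus vehicle (x axis, log2) for 15 lists (y axis), with all 6 arrays, without vehicle array 2, without anti-VEGF array 1, without anti-VEGF array 3 and without these 3. The endothelial median lies at -0.28 with all arrays and at 0.20 without vehicle array 2, and the neutrophil median runs from -1.47 without anti-VEGF array 1 to 0.28 without anti-VEGF array 3.

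Whether the treatment difference depended on the liver was tested against the healthy liver arrays. In the interaction of liver and treatment, 0 of 13286 genes passed in limma and 677 had an unadjusted p under 0.05. Nr1d1 was higher and Cry1 lower with treatment there too, by 0.54 and -0.29, without a test of likeness. Pou2f2 read lower with treatment in healthy liver, by -0.71, and higher in fatty liver, by 0.55, and this difference did not pass either (adjusted p = 0.278).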

How the data were processed

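Total RNA of 12 mouse tumours was measured on Affymetrix whole-transcript arrays, and the 6 of fatty liver are described. The authors deposited log2 values, 1 column per array. Expression Console made them, per the submitters' processing notes; the sources used here give no version, algorithm, normalization or build, and the log2 scale was read from the values. Of 41345 rows, 23521 carry 1 gene symbol in the platform annotation, 1814 several and 16010 none, and only the first kind was used. Where a gene had more than 1 row (1082 genes), its brightest on average was taken, leaving 22180. A gene was tested when above 4.93, the median of the table, on at least 3 arrays. Depth does not apply, and the number of arrays limits the precision.

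All 12 arrays entered limma (version 3.58.1, R 4.3.3) as 4 group means (lmFit, then eBayes; 8 residual and 2.40 prior degrees of freedom), at a Benjamini-Hochberg adjusted p of 0.05. SE is the moderated standard error. The fit was tested on simulated data with independent noise for each gene and array. That simulation held no array-wide patterns and no nearly alike arrays, so it cannot show how the fit handles them. Gene lists are described by counts and medians of tested members. The naming rule took, per direction, 10 genes by smallest p and 10 by widest gap between groups, without symbols of predicted, clone-named or segment-family genes. It added up to 4 list members by smallest p, 8 genes above and 8 below for each array that stood apart, and a fixed set that included Vegfa, Kdr, Cpt1a, Cd36, Car9, Alb and Mki67. Genes called only with an array left out, and further list members, were named after their values were seen. The members and lists were chosen with earlier results of these data known. Alternatives were arrays left out, 6 arrays alone, a replicate block, averaged near-identical arrays, array weights, another normalization, filters and row choice. Promoter windows are RefSeq's on GRCm38.p6, matched by symbol.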

Additional observations from a re-analysis of the deposited data

Results flagged for a closer look

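In 6 of the named genes and members of the gene lists the 3 anti-VEGF arrays lay on opposite sides of the 3 vehicle arrays in the 2 livers, without overlap in either, and the interaction test did not pass for any. Values are the difference in fatty liver minus that in healthy liver, in log2. Mid1 stood at 2.24, from 1.56 in fatty and -0.68 in healthy liver (interaction adjusted p = 0.69). Pou2f2 stood at 1.25, from 0.55 and -0.71 (adjusted p = 0.278), and Prelp at 1.06, from 0.87 and -0.19 (adjusted p = 0.69). The fatty acid oxidation gene Ech1 stood at -0.53, from -0.38 and 0.15, and Klhl31 at -0.67, from -0.44 and 0.23 (adjusted p = 0.69 for both). Klhl31 lay under the limit on all 3 anti-VEGF arrays of fatty liver. The fatty acid carrier Fabp4 stood at -1.11, from -0.75 and 0.36 (adjusted p = 0.964). No interpretation is offered, since the difference between the livers failed the test in each gene. Mid1, Pou2f2, Prelp, Ech1 and Klhl31 were named for their small p in fatty liver, so their separation there followed in part from the naming rule. The share of all tested genes with this pattern is not given, so the count of 6 says nothing of these genes as a set. Groups of 3 were too small for a test of outlying arrays.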

How the results depend on the processing

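Klk1b11 was lower in all 25 alternatives, by -1.87 to -1.60, and passed in 11 (adjusted p = 0.00212 to 0.987). Over the 12 fits without 1 array its difference ran from -1.873 to -1.636, the count of lower genes from 0 to 8 and that of higher genes from 0 to 3. With 6 arrays alone the difference was -1.778 (adjusted p = 0.183), with nearly alike arrays averaged, which left 8 samples, -1.734 (0.691), and without vehicle array 2 and anti-VEGF arrays 1 and 3 -1.675 (0.151). Without the 2 vehicle arrays high in Xist, an alternative chosen after seeing the data, it was -1.603 (0.453), and the lone vehicle array is then assumed to vary like the other groups. In all of these but the fit without the 3 arrays, 0 genes were lower. Without those 3 arrays, 4 genes were higher, 1 lower and 2 differed between livers. With array weights, 920 were higher, 928 lower and 1477 differed between livers. With the replicate number as a block, Klk1b11 stood at -1.778 (adjusted p = 0.221, and 0.987 with the 6 arrays alone) and 0 genes were lower. Deviations of same-numbered fatty liver arrays from their group means correlated at -0.486, 0.106 and 0.472. The deviations within a group sum to 0 in each gene, so these values cannot show whether the numbers pair the samples. The causes were not tested. Quantile normalization, centring, the filters, the row choice and eBayes with trend and robust settings kept the call. Of 1389 values of 56 named genes under alternatives, 1310 kept direction and side of the threshold and 33 turned in sign without a call; 32 were called only in an alternative. Of 900 medians of 36 lists, 35 moved. The signal over background limits the lowest genes, and 93.6% of tested genes had both group means above the limit.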
